A study of Mus musculus with 17 samples.

Results

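The 34 genes described here encode the machinery of DNA replication or mark the step from G1 into S phase of the cell cycle. They were chosen by gene symbol, and each was read from the probe set, annotated to that symbol alone, with the highest mean log2 intensity over all arrays. All 34 were among the 18194 genes measured, and all 34 were among the 16785 genes tested because they lay above the lowest deposited value on at least 1 array. That value was an intensity of 16, or 4 on the log2 scale, and is called the floor here. All levels are log2 of the deposited probe set intensity, and all differences are on that scale, where 1 is a 2-fold change. Each brightness depends on its own probes, so levels are compared between arrays and not between genes.

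RNA of sorted mouse hematopoietic stem cells (HSCs) was hybridized to 17 Affymetrix arrays in 5 groups. One group was fetal liver at E15.5 (n = 3), sorted as lineage-negative, Mac-1 low, Sca-1+, c-Kit+, CD150+ and CD48- cells, with no genotype or pIpC given in the labels. The other 4 groups were adult HSCs of the same gate without the Mac-1 term: control at day 7 (n = 3), knockout (KO) at day 7 (n = 3), control at day 21 (n = 4) and KO at day 21 (n = 4). All adult groups, controls included, were sampled after pIpC, a synthetic double-stranded RNA commonly used to switch on an interferon-inducible Cre recombinase. The sample titles name the adult mutant C/EBPa KO, whereas the genotype field and the design text name it a Pu.1 knock-in (PU.1ki/ki), and controls are labelled wild type. The labels used here do not name a Cre line, the age in weeks of the adult mice or whether animals were pooled, so p-values measure only the spread between these samples.

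Before S phase, the ring of Mcm2 to Mcm7 proteins is loaded onto origins with the help of Cdc6, and it becomes the replicative helicase once Cdc45 and the GINS complex join it. DNA polymerases then copy the strands with the sliding clamp Pcna. Ribonucleotide reductase and thymidylate synthase supply nucleotides, and histone chaperones repackage the new DNA. Many of these genes are transcribed late in G1 under E2F factors. Adult HSCs are mostly quiescent and fetal liver HSCs mostly cycle, so these transcripts are a common readout of the cycling state of HSCs.

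Promoter windows of 300 bases, from 250 before to 50 after the RefSeq transcript start (GRCm38.p6), were at hand for 24 of the 34 genes and not for Mcm4, Gins1, Gins2, Gmnn, Pole, Rfc2, Tipin, Dscc1, Usp1 and Ccne2. The E2F letters TTTCCCGC, TTTCGCGC, TTTGCCGC or TTTGGCGC, searched on both strands, stood in a window of 10 of the 24 genes (41.7%) and of 704 of all 27025 genes with a window (2.6%). CCAAT stood in 17 of the 24 (70.8%, against 41.1% of all), and TTTGAA, the core of the motif common in late cell cycle genes, in 5 (20.8%, against 20.2%). One CCAAT or TTTGAA match overlapped an E2F match, in Mcm7. Genes with several start sites were counted once. The windows of 5 genes are shown, chosen because the results turn on Mcm3, Cdc6, Mcm2 and Rrm1 and because Mcm6 held the most E2F matches. They are written 5′ to 3′ on the gene's strand in lower case, with E2F matches in capitals.
Mcm3: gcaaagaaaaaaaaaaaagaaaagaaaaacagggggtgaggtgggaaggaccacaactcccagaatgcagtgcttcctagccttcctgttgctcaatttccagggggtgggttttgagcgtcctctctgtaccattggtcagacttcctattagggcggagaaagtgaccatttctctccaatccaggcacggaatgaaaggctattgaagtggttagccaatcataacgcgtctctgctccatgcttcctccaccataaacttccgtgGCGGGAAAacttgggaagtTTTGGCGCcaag
Mcm6: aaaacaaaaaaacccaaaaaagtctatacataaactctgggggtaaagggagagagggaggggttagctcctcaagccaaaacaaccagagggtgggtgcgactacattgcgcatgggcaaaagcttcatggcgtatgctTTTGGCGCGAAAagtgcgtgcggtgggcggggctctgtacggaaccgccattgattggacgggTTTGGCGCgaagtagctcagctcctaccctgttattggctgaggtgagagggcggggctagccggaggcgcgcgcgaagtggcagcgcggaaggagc
Cdc6: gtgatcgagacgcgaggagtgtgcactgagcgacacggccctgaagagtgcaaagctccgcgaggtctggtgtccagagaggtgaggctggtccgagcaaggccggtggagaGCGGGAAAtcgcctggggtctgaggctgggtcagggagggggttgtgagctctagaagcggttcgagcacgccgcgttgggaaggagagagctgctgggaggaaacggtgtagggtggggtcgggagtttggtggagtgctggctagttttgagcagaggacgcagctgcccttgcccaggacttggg
Mcm2: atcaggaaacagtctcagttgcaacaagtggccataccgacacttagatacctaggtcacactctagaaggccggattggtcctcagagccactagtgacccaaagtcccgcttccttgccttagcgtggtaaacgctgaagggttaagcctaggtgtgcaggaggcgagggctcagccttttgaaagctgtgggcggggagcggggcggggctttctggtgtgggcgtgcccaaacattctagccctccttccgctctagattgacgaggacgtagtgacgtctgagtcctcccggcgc
Rrm1: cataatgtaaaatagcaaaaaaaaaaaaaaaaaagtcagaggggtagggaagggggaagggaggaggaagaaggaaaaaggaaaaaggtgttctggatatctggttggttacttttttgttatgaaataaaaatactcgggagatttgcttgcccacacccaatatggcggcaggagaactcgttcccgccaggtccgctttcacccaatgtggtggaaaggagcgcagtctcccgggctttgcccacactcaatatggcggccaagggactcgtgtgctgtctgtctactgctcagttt
The Mcm3 window lies at chr1:20820263-20820562 (minus strand), and its 2 matches begin 19 and 38 bases after the start. The Mcm6 window lies at chr1:128359656-128359955 (minus strand), with 3 matches that begin 110, 106 and 47 bases before the start, the first pair overlapping on opposite strands. The Cdc6 window lies at chr11:98907901-98908200 (plus strand), with 1 match that begins 138 bases before the start. The annotated Cdc6 gene begins before this window, at 98907709, so the window and its match lie inside the gene and do not cover its first bases. The windows of Mcm2 at chr6:88898731-88899030 (minus strand) and of Rrm1 at chr7:102441445-102441744 (plus strand) held none of these letters. A match describes the letters only and does not show a bound site.

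The labels were checked first. Cebpa, which encodes C/EBPa, had log2 intensities of 7.09 to 8.30 on the control day 7 arrays, 6.85 to 9.06 on the control day 21 arrays, 4.37 to 5.0 on the KO day 7 arrays and 4.64 to 5.32 on the KO day 21 arrays. Over both days Cebpa fell by 2.78 in KO (SE 0.36, limma adjusted p = 0.0426). Spi1, which encodes PU.1, lay at a mean of 8.16 to 8.56 in all 5 groups. The gate was checked on its own genes. Kit lay at 8.79 to 9.82 on all arrays, Slamf1 (CD150) at 5.24 to 10.04, and Cd48, which the gate excludes, at 4 to 4.23 on the control day 7 arrays and at 5.93 to 8.14 on the KO day 7 arrays. At day 21 Cd48 lay at 4.21 to 9.36 in control, with the highest value of all arrays on replicate 3, and at 6.5 to 8.27 in KO, and in fetal liver it lay at 6.64 to 7.71. The Y-linked Eif2s3y lay at 7.02 to 9.02 on all 6 arrays of day 7 and at the floor on all other arrays, so day and these transcripts cannot be told apart. One KO day 7 array, replicate 1, also carried Xist at 12.26 against 4.92 to 5.62 on the other 5 arrays of day 7. Between 20.4% and 25.2% of probe sets per array lay at the floor.

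Taken as a mean over the 34 genes, the log2 level was 9.22 ± 0.11 (SD, n = 3) in fetal liver, 8.48 ± 0.38 (n = 3) in control and 9.08 ± 0.17 (n = 3) in KO at day 7, and 8.5 ± 0.37 (n = 4) in control and 8.74 ± 0.20 (n = 4) in KO at day 21. The 3 fetal arrays lay at 9.14 to 9.34, above all 7 control arrays, which spanned 7.97 to 8.86. The 7 KO arrays spanned 8.56 to 9.19 and overlapped both. Within day 7 the KO arrays (8.88 to 9.19) lay above the control arrays (8.1 to 8.86), and within day 21 the groups overlapped. Of the 34 genes, 17 had their highest group mean in fetal liver, where 27.7% of all genes had theirs, and 9 in KO at day 7 (18% of all genes). The lowest group mean was control day 21 for 15 genes and control day 7 for 11 (21.7% and 21.9% of all genes). In bulk RNA, fewer cells in S phase and less RNA per cell cannot be told apart.

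**Figure D1:**
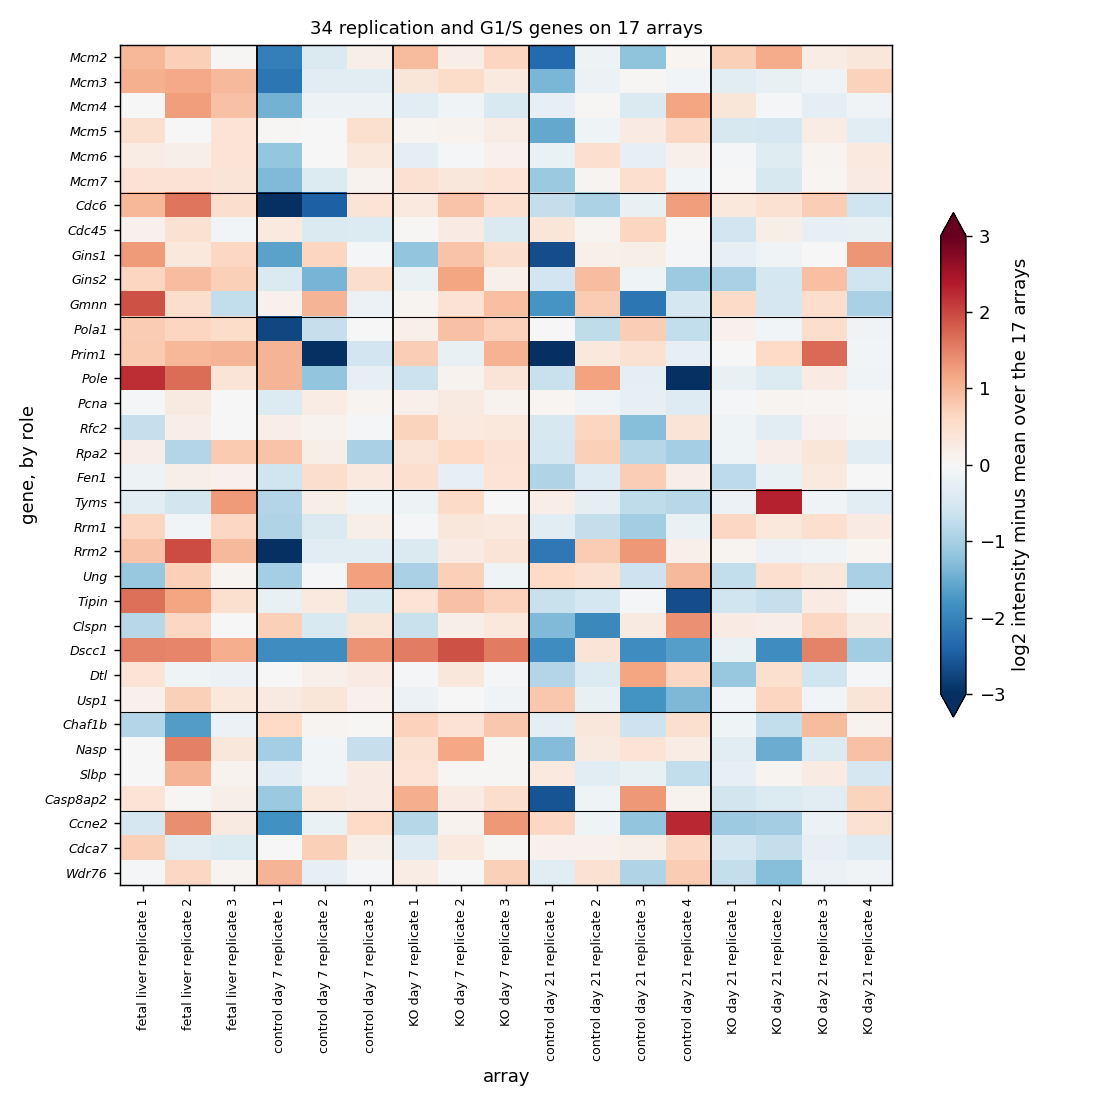
Log2 intensity of the 34 genes (rows, ordered by role) on the 17 arrays (columns, by group), minus each gene's mean over all arrays. Colours run from 3 below (blue) to 3 above (red), and stronger differences take the end colour. Control day 7 replicate 1 and control day 21 replicate 1 hold the most deep blue cells, and the fetal arrays are mostly red.

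**Figure D2:**
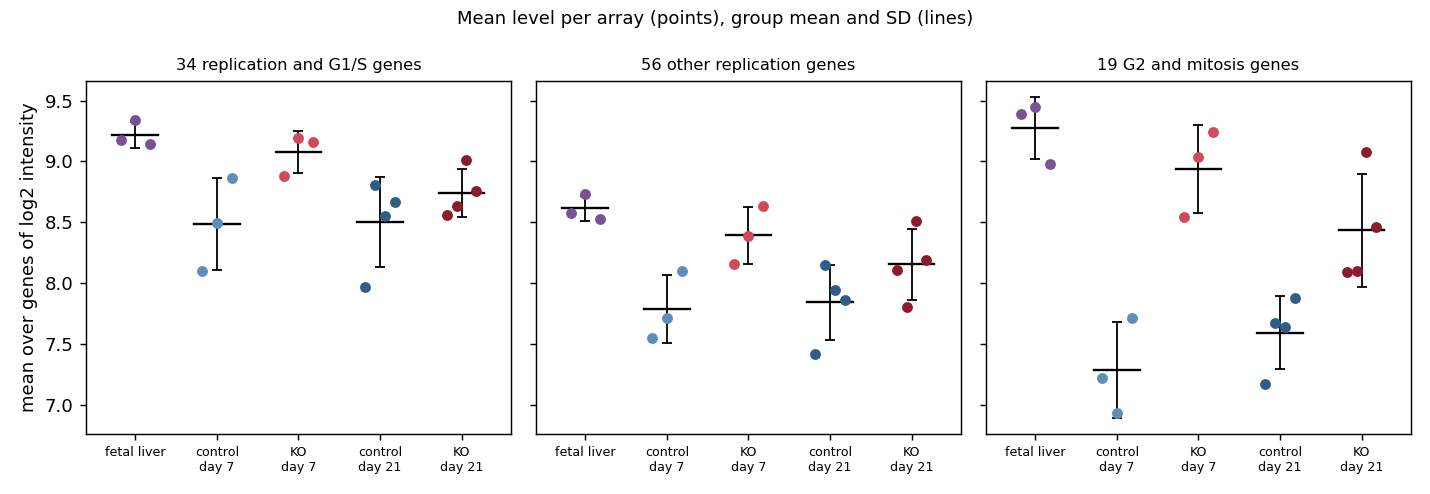
Mean log2 intensity per array over the 34 genes, over 56 other replication genes and over 19 G2 and mitosis genes. Each point is an array, and lines give the group mean and SD. In the first 2 panels the KO arrays lie above the control arrays at day 7 and overlap them at day 21. In the third all KO arrays (8.09 to 9.24) lie above all control arrays (6.93 to 7.88).

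At day 7, the largest differences between KO and control among the 34 genes were in Dscc1, a subunit of an alternative clamp loader, Cdc6, the loader of the helicase, Pola1, the catalytic subunit of the primer-making polymerase, Prim1, its primase partner, Rrm2, the small subunit of ribonucleotide reductase, and Mcm2 and Mcm3 of the helicase ring. Their means were higher in KO by 1.35 to 2.46 on the log2 scale. In all, 28 of 34 genes were higher and 6 lower, with a median difference of 0.40, against 50.1% higher and a median of 0.00 over all genes tested. None passed the test, which asked for an adjusted p under 0.05 in limma, and the share of all genes that passed was 0%. At an unadjusted p under 0.05 there were 6 members, all higher, or 17.6% of the list, against 3.74% of all genes in that direction. All 3 KO arrays lay above all 3 control arrays for 8 members (Mcm2, Mcm3, Mcm7, Pola1, Rfc2, Tipin, Dscc1 and Nasp), 23.5% of the list against 7.48% of all genes, and below them for Usp1 alone (6.39% of all genes). Without control day 7 replicate 1 the members at an unadjusted p under 0.05 went from 6 to 1 and those higher from 28 to 23, while the median was 0.36. Without KO day 7 replicate 1, the array with Xist, 31 were higher and the median was 0.44.

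At day 21, Mcm2, Prim1 and Rrm1, the large subunit of ribonucleotide reductase, stood highest in KO relative to control, by 1.51, 1.42 and 0.99, and Ccne2, which encodes cyclin E2, and Cdca7 stood lowest, with differences of -0.86 and -0.72. Of the 34 genes, 21 were higher and 13 lower, with a median of 0.16 against 0.00 over all genes, or 0.01 against -0.16 with each array centred on its median. None passed the test in limma, against 3 genes (0.0179%) of all. At an unadjusted p under 0.05 there were 3 members (Mcm2, Rrm1 and Cdca7), 8.82% of the list and near the 10.1% of all genes. KO and control arrays did not overlap for Mcm2 and Rrm1, which were higher, and Cdca7, which was lower, against 3.14% and 2.35% of all genes in these directions. The count of members that did not overlap was 6 without control day 21 replicate 1, and the count at an unadjusted p under 0.05 was 5 without control day 21 replicate 3 or replicate 4.

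Over both days together, 27 of 34 genes were higher in KO with a median of 0.38, against 0.01 over all genes, and again none passed, against 12 genes (0.0715%). There were 7 members at an unadjusted p under 0.05, 20.6% of the list against 11.7% of all genes. Rrm1 had the smallest p, with a difference of 0.79 (SE 0.19, limma adjusted p = 0.163), followed by Mcm2 at 1.43 (SE 0.41, adjusted p = 0.205) and Mcm3 at 0.87 (SE 0.31, adjusted p = 0.302). Mcm2 was the one member for which each of the 7 KO arrays lay above each of the 7 control arrays, as did 0.274% of all genes. The KO effects of both days were also set against each other: 26 of 34 were smaller at day 21 than at day 7, with a median of -0.31 against 0.00 over all genes. No member passed this test (0% of all genes did) and none had an unadjusted p under 0.05, against 4.52% of all genes. Pola1 (-1.42, SE 0.74), Usp1 (1.21, SE 0.65) and Cdc6 (-1.85, SE 1.00) had the smallest p, each with an adjusted p of 1. Without control day 21 replicate 1, 6 members had an unadjusted p under 0.05, and 4 did without control day 7 replicate 3. Members whose KO effect was larger at day 21 went from 8 to 15 without control day 7 replicate 1 and to 13 without either control day 21 replicate 2 or KO day 21 replicate 1.

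Other transcripts also stood higher or lower on the KO arrays. All 19 measured genes of G2 and mitosis had higher means in KO at both days, with median differences of 1.67 (day 7) and 0.78 (day 21), and none was called. The summed intensity of 8 erythroid markers was 1960 to 6330 in KO against 1170 to 1780 in control at day 7, and 2090 to 7840 against 810 to 4580 at day 21. That of 6 megakaryocyte markers was 1490 to 3880 against 708 to 1100 at day 7, and 3140 to 6190 against 1070 to 8220 at day 21. The sum of 8 HSC markers was 5030 to 5980 in KO against 7430 to 8200 in control at day 7, and 3850 to 6550 against 6020 to 8380 at day 21. No erythroid or megakaryocyte marker was at the floor on every array of a KO group. The part of these markers in the values above was not tested.

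In fetal liver against adult control, Mcm3 rose by 1.73 on the log2 scale, a 3.32-fold higher intensity (SE 0.39, limma adjusted p = 0.0265). It was the one member called, 2.94% of the list, against 3.65% of all genes called and 1.88% for rises alone, so the share is near the background. The next members were Tipin, a fork protection factor, at 1.66 (SE 0.46, adjusted p = 0.0642) and Rrm1 at 0.88 (SE 0.25, adjusted p = 0.0668). In all, 29 of 34 genes were higher, with a median of 0.56 against 0.02 over all genes. There were 12 members at an unadjusted p under 0.05, 35.3% of the list against 16.8% of all genes. Of these, 11 were higher, and Chaf1b, a subunit of the histone chaperone CAF-1, had a lower mean in fetal liver (difference -1.02, SE 0.37). A second, dimmer Chaf1b probe set, with a mean log2 intensity of 5.16, gave -0.21. All 3 fetal arrays lay above all 7 control arrays for Mcm3 and Tipin, against 3.37% of all genes. The Mcm3 call did not survive leaving out a fetal array, whichever it was (limma adjusted p = 0.072 to 0.0952). It was also lost with control day 21 alone as reference (adjusted p = 0.102), with a fit of the compared groups alone (adjusted p = 0.146) and with the mean of all 5 probe sets (adjusted p = 0.148). Leaving out 1 library gave 0 called members without fetal replicate 1 or replicate 3, 4 without control day 7 replicate 3 and 2 without control day 21 replicate 3 or replicate 4. Members at an unadjusted p under 0.05 went from 12 to 6 without fetal replicate 2. Those above all control arrays went from 2 to 6 without fetal replicate 3, 4 without control day 7 replicate 3 and 5 without control day 21 replicate 3.

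Stage, tissue of origin, the Mac-1 term of the gate and pIpC differ together in this comparison and cannot be told apart. The control reference also joins day 7 arrays, which carry the Y-linked Eif2s3y, with day 21 arrays, which like the fetal arrays do not. Several sums of markers of other cells were higher on the fetal arrays. The summed intensity of 7 macrophage markers was 2520 to 3030 there and 160 to 193 on the control arrays, where Adgre1 was at the floor on every array. That of 6 granulocyte and monocyte markers was 4270 to 34700 against 211 to 4030, of 8 hepatocyte markers 817 to 11700 against 397 to 1830, of 7 endothelial markers 2860 to 12800 against 566 to 1390, and of 8 erythroid markers 5580 to 8020 against 810 to 4580. None of these markers was at the floor on all fetal arrays, and their part in the levels of the replication genes was not tested.

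Against KO, which shares the fetal arrays with the comparison above, 26 of 34 genes were higher in fetal liver, with a median of 0.32 against 0.01 over all genes. No member passed the test in limma, against 2.54% of all genes, and 3 had an unadjusted p under 0.05 (Mcm3, Mcm4 and Chaf1b), 8.82% of the list against 14.4% of all. Chaf1b lay lower in fetal liver, at 8.38, 7.59 and 9.10, than in KO at day 7, at 9.96, 9.70 and 10.07, and overlapped KO at day 21, at 9.15, 8.52, 10.21 and 9.37. Its difference was -1.25 (SE 0.37, limma adjusted p = 0.101). The second, dimmer Chaf1b probe set gave 0.29, so the probe sets disagree on the direction against KO. Mcm3 and Rrm2 lay above all 7 KO arrays on all fetal arrays, against 3.70% of all genes. The count at an unadjusted p under 0.05 was 1 without fetal replicate 2, KO day 7 replicate 1 or replicate 3, or KO day 21 replicate 2 or replicate 3, and the count above all KO arrays was 6 without fetal replicate 3.

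**Figure D3:**
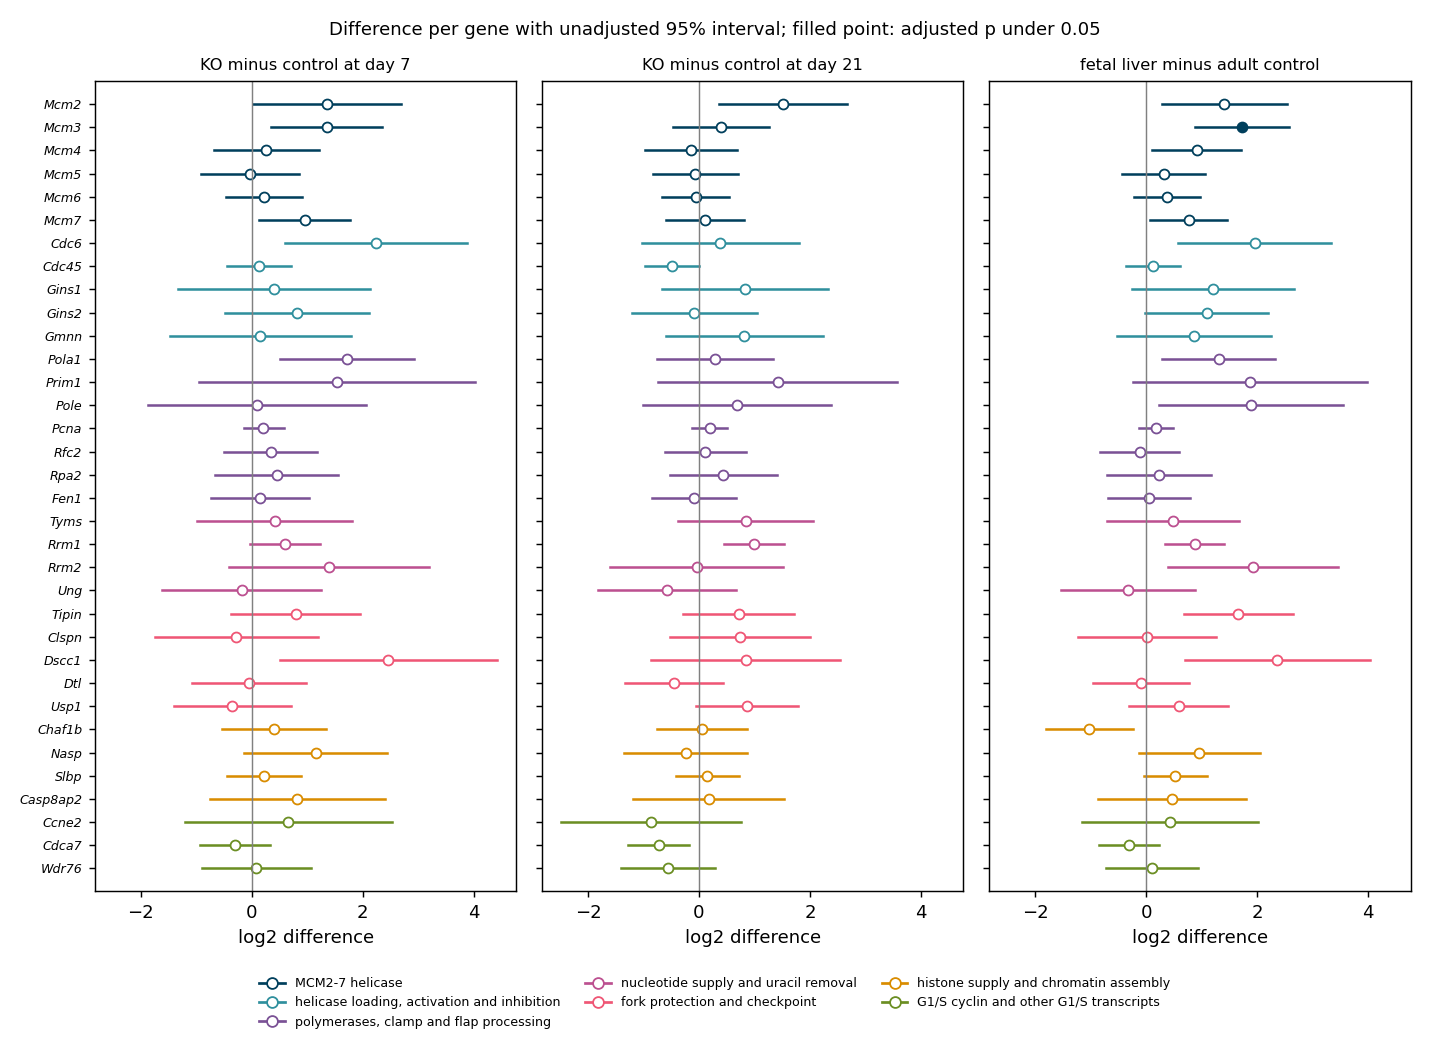
Log2 difference of each of the 34 genes (rows, coloured by role) in 3 comparisons, with the unadjusted 95% interval. Filled points have an adjusted p under 0.05. The single filled point is Mcm3 in fetal liver against adult control, and most points at day 7 and in fetal liver lie right of 0.

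Within the helicase ring, Mcm2 and Mcm3 differed most between groups. Mcm2 was at 10.66, 10.37 and 9.70 in fetal liver, at 7.62, 9.24 and 9.85 in control and 10.61, 9.87 and 10.32 in KO at day 7, and at 7.33, 9.51, 8.45 and 9.72 in control and 10.38, 10.78, 9.89 and 10 in KO at day 21. Every KO array was above every control array, by as little as 9.87 against 9.85. The KO differences were 1.36 at day 7 (SE 0.62, limma adjusted p = 0.734) and 1.51 at day 21 (SE 0.53, adjusted p = 0.350). A second Mcm2 probe set, with a mean log2 intensity of 9.02, gave 0.68 and -0.30 for the same comparisons, so the probe sets disagree at day 21.

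Mcm3 was at 11.49, 11.54 and 11.39 in fetal liver, at 8.25, 10.07 and 10.08 in control and 10.78, 10.97 and 10.71 in KO at day 7, and at 9.05, 10.24, 10.44 and 10.33 in control and 10.07, 10.18, 10.31 and 11.11 in KO at day 21. The fetal arrays were above all others, the KO arrays above control at day 7, and the groups overlapped at day 21. The KO differences were 1.35 at day 7 (SE 0.46, limma adjusted p = 0.594) and 0.40 at day 21 (SE 0.40, adjusted p = 0.774). Of 5 Mcm3 probe sets, fetal liver against control gave 1.73, 1.42, 0.64, 0.46 and -0.04, from the brightest to the dimmest. The brightest pair carries the suffixes _s_at and _x_at, which mark probes that can match other transcripts, and this pair passed when all probe sets were tested.

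Mcm7 was at 11.55, 11.54 and 11.49 in fetal liver, at 9.78, 10.70 and 11.21 in control and 11.57, 11.45 and 11.52 in KO at day 7, and at 9.99, 11.20, 11.61 and 11.03 in control and 11.11, 10.64, 11.18 and 11.36 in KO at day 21. KO lay above control at day 7, by 0.95 (SE 0.38, limma adjusted p = 0.685), and overlapped it at day 21, with a difference of 0.11 (SE 0.33). Mcm4 was at 9.19, 10.47 and 10.08 in fetal liver, at 7.80, 9.07 and 9.07 in control and 8.87, 9.10 and 8.76 in KO at day 7, and at 8.96, 9.25, 8.78 and 10.39 in control and 9.58, 9.18, 8.94 and 9.10 in KO at day 21. All adult groups overlapped. A second Mcm4 probe set gave 1.67 at day 7 and 0.56 at day 21.

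Mcm5 was at 10.69, 10.22 and 10.62 in fetal liver, at 10.25, 10.22 and 10.68 in control and 10.30, 10.32 and 10.43 in KO at day 7, and at 8.68, 10.08, 10.45 and 10.82 in control and 9.73, 9.71, 10.44 and 9.89 in KO at day 21. Mcm6 was at 11.03, 10.99 and 11.22 in fetal liver, at 9.65, 10.83 and 11.13 in control and 10.54, 10.77 and 10.95 in KO at day 7, and at 10.62, 11.32, 10.56 and 10.97 in control and 10.78, 10.44, 10.89 and 11.11 in KO at day 21. For both genes the KO and control arrays overlapped at both days, with differences between -0.07 and 0.22. A second, dimmer probe set gave 0.50 and 0.83 for Mcm5 at the same days, and 1.65 and 0.40 for Mcm6, so the size of the difference depends on the probe set. The mean over the 6 ring genes was 10.15 to 10.45 on the 7 KO arrays and 8.89 to 10.54 on the 7 control arrays, and its SD was 0.12 against 0.64.

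**Figure D4:**
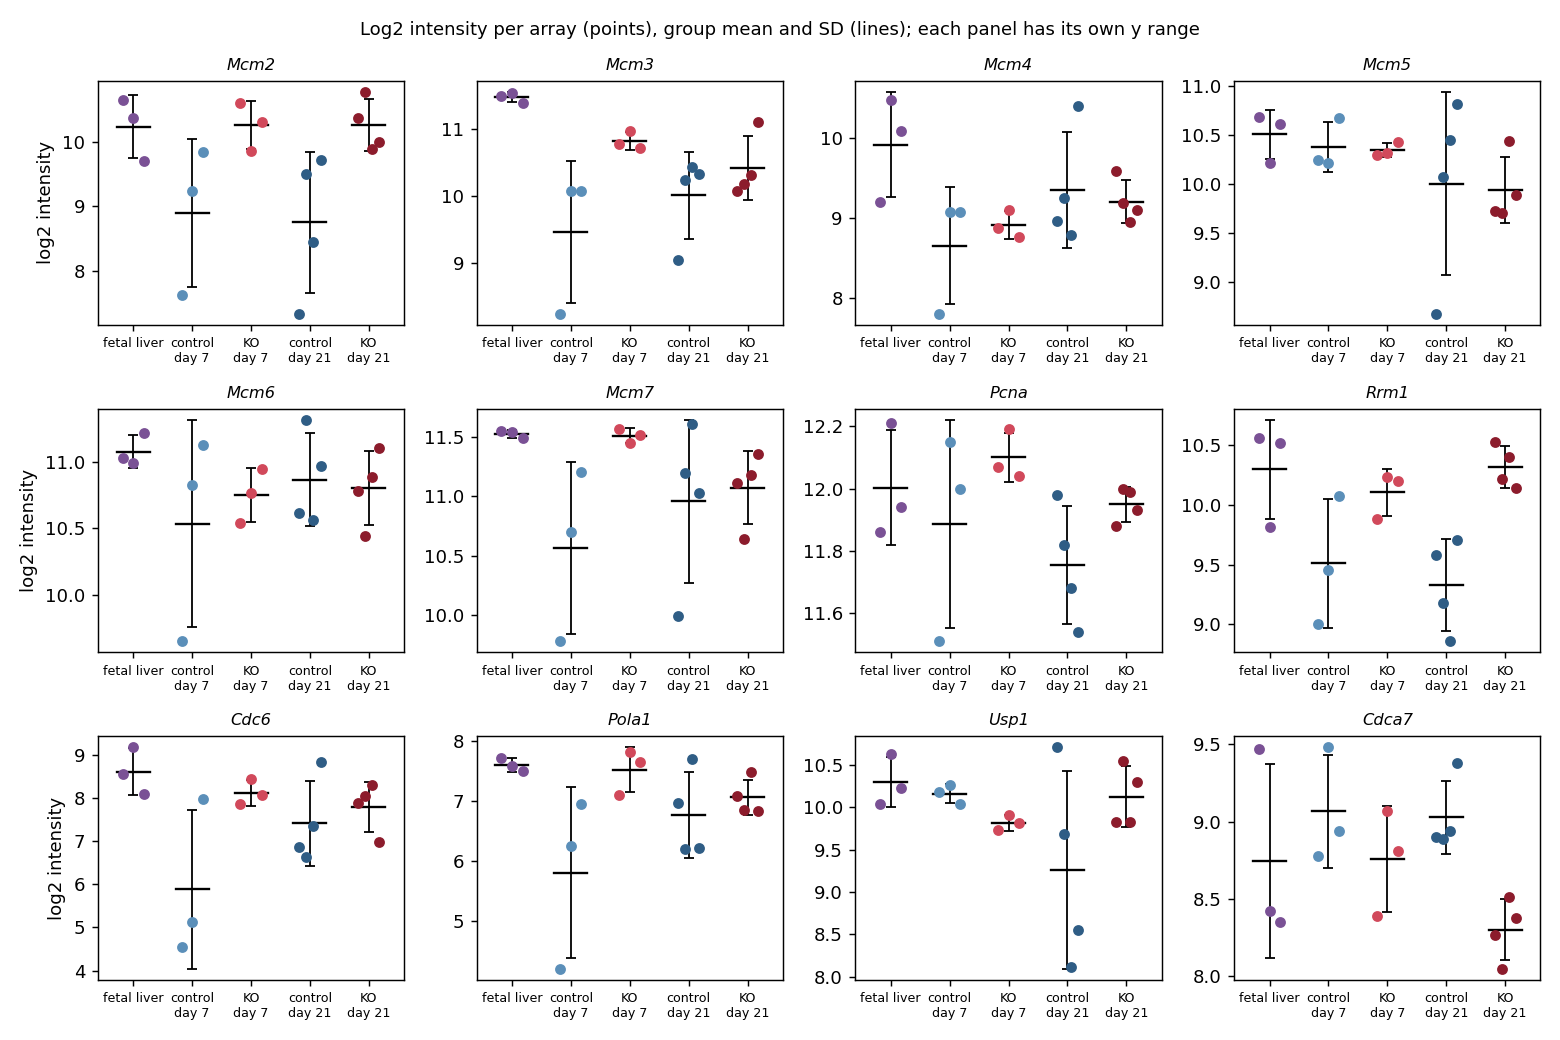
Log2 intensity of 12 genes on every array (points), with group means and SDs (lines). Each panel has its own range. For Mcm2 all KO points lie above all control points, and for Mcm3 the 3 fetal points, at 11.39 to 11.54, lie above all others.

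Among the 5 genes of helicase loading, activation and inhibition, all 5 were higher in KO at day 7 and in fetal liver against control, with medians of 0.40 and 1.09, and none passed. Cdc6 was at 8.56, 9.18 and 8.10 in fetal liver, at 4.55, 5.12 and 7.99 in control and 7.86, 8.44 and 8.07 in KO at day 7, and at 6.86, 6.63, 7.36 and 8.83 in control and 7.88, 8.04, 8.31 and 6.98 in KO at day 21. A pair of control arrays at day 7 was near the floor and the third was level with KO, so the groups overlapped. The difference at day 7 was 2.24 (SE 0.76, limma adjusted p = 0.579). Cdc6 also had the smallest p of the members between control days, higher at day 21 by 1.53 (SE 0.71, adjusted p = 0.620). The GINS subunits Gins1 and Gins2 differed from control in fetal liver by 1.20 and 1.09, and geminin (Gmnn), which blocks relicensing of origins, by 0.87. Second, dimmer probe sets gave 0.01 for Gins1 and 0.73 for Gins2 there, so the size for Gins1 depends on the probe set. Cdc45 had differences of 0.13 at day 7, -0.49 at day 21 (95% interval -0.98 to 0.01, limma adjusted p = 0.509) and 0.13 in fetal liver against control. A second Cdc45 probe set, with a mean log2 intensity of 6.57, gave 0.36, 0.18 and 0.51, so the probe sets disagree at day 21.

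The 7 genes of the polymerases, the clamp and flap processing were all higher in KO at day 7, with a median of 0.34, and 6 of 7 were higher at day 21, with a median of 0.29, none of them called. Pola1 was at 7.72, 7.59 and 7.50 in fetal liver, at 4.21, 6.26 and 6.96 in control and 7.10, 7.82 and 7.65 in KO at day 7, and at 6.97, 6.20, 7.70 and 6.22 in control and 7.08, 6.86, 7.48 and 6.84 in KO at day 21. KO lay above control at day 7 and overlapped it at day 21, with differences of 1.71 (SE 0.56, limma adjusted p = 0.555) and 0.29 (SE 0.48). Pola1 lies on the X chromosome, and the Xist and Eif2s3y levels above differ between the days.

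Pcna, the clamp itself, was the steadiest of these genes. It was at 11.86, 12.21 and 11.94 in fetal liver, at 11.51, 12.15 and 12 in control and 12.07, 12.19 and 12.04 in KO at day 7, and at 11.98, 11.82, 11.68 and 11.54 in control and 11.88, 12, 11.99 and 11.93 in KO at day 21. KO and control arrays overlapped at each day, and the KO arrays of day 7 lay above all arrays of day 21. The 95% interval of its KO difference ran from -0.15 to 0.58 at day 7 and from -0.12 to 0.51 at day 21. Prim1 spanned 5.06 to 10.09 on the control arrays and 8.84 to 10.78 on the KO arrays. Pole, the leading strand polymerase, differed by 1.89 in fetal liver against control (SE 0.77, limma adjusted p = 0.222). In that comparison the clamp loader subunit Rfc2, the single-strand binding subunit Rpa2 and the flap nuclease Fen1 differed by -0.11 to 0.23. Other, dimmer probe sets gave -0.79 and -0.08 for Rfc2, 1.19 for Rpa2 and 0.20 for Fen1. The size of the difference for Rfc2 and Rpa2 therefore depends on the probe set.

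In nucleotide supply, Rrm1 was at 10.56, 9.82 and 10.52 in fetal liver, at 9.0, 9.46 and 10.08 in control and 9.88, 10.24 and 10.20 in KO at day 7, and at 9.58, 9.18, 8.86 and 9.71 in control and 10.53, 10.22, 10.40 and 10.14 in KO at day 21. KO lay above control at day 21, by 0.99 (SE 0.25, limma adjusted p = 0.215), and overlapped it at day 7, with a difference of 0.60 (SE 0.29). A second Rrm1 probe set gave 0.76 and 0.33. Rrm2, the small subunit that cells make in S phase, was at 10.24 to 11.34 in fetal liver, 6.08 to 9.06 in control and 8.95 to 9.76 in KO at day 7, and 7.22 to 10.67 in control and 9.21 to 9.45 in KO at day 21. Its lowest values were on control replicate 1 of each day, and its difference in fetal liver against control was 1.92 (SE 0.71, adjusted p = 0.166). Ung, which removes uracil from DNA, had lower means in KO, with differences of -0.18 at day 7 and -0.57 at day 21. The brightest Tyms probe set, for thymidylate synthase, had a mean log2 intensity of 5.62, near the median probe set at 5.65, and a second one gave differences of opposite sign, so no direction is given for Tyms.

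Of the 5 genes of fork protection and the checkpoint, Tipin was at 10.16, 9.68 and 8.99 in fetal liver, 8.04 to 8.80 in control and 8.91 to 9.38 in KO at day 7, and 5.85 to 8.47 in control and 7.80 to 8.75 in KO at day 21. Fetal arrays lay above all controls, and KO above control at day 7 alone. Dscc1 was at the floor on 5 of 17 arrays, 4 of them control arrays, and at 7.39, 7.77 and 7.41 on the KO arrays at day 7. Its fitted difference at day 7, 2.46 (SE 0.91, limma adjusted p = 0.635), depends on those floored values and is no exact size. Usp1, which removes ubiquitin from Pcna, was at 10.18, 10.26 and 10.04 in control and 9.73, 9.91 and 9.81 in KO at day 7, where all KO arrays were lower, and at 10.71, 9.68, 8.11 and 8.55 in control and 9.83, 10.55, 9.83 and 10.30 in KO at day 21. Other Usp1 probe sets gave 0.28 and 1.08 at day 7 and -0.04 and -0.07 at day 21. Clspn activates the checkpoint kinase Chek1, and Dtl targets the licensing factor Cdt1 for destruction. They differed by -0.28 and -0.05 at day 7, and by 0.74 and -0.45 at day 21. A second Clspn probe set gave 1.69 at day 7 and 0.59 at day 21. Other Dtl probe sets gave -0.58 to 1.58 at day 7 and -0.61 to 1.87 at day 21. No direction is therefore given for Clspn at day 7 or for Dtl.

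Histone supply and chromatin assembly gave medians of 0.61 at day 7 and 0.11 at day 21. Nasp, a histone chaperone, was at 8.13, 9.06 and 8.46 in control and 9.61, 10.30 and 9.19 in KO at day 7, without overlap, and at 7.86 to 9.56 and 7.65 to 10.04 at day 21. All 4 other Nasp probe sets, each dimmer, gave differences below 0 at day 7 (-0.97 to -0.29), so no direction is given for Nasp. Slbp, which binds histone mRNA, and Casp8ap2, which takes part in histone mRNA processing, differed by 0.22 and 0.82 at day 7 and by 0.15 and 0.18 at day 21. The 3 remaining G1/S transcripts had median differences of 0.08 (day 7) and -0.72 (day 21). Cdca7, a partner of the chromatin remodeller Hells, was at 8.78, 9.48 and 8.94 in control and 8.39, 9.07 and 8.81 in KO at day 7, and at 8.90, 8.89, 8.94 and 9.38 in control and 8.27, 8.05, 8.51 and 8.38 in KO at day 21. The arrays overlapped at day 7 and were all lower in KO at day 21, by a difference of -0.72 (SE 0.25, limma adjusted p = 0.340). Ccne2 and Wdr76 differed by -0.86 and -0.56 at day 21, and their arrays overlapped.

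The spread between replicates was wider in control than in KO for nearly all of these genes. Pooled over both days, the SD was larger in control for 31 of 34 members (91.2%), against 68.2% of all genes tested. The median SD was 0.84 in control and 0.39 in KO, against 0.51 and 0.39 over all genes, and 0.48 in fetal liver, against 0.38. The exceptions were Tyms, Chaf1b and Nasp. Prim1 had an SD of 2.19 in control and 0.77 in KO, Pole 1.68 and 0.40, Rrm2 1.60 and 0.29, and Mcm2 1.12 and 0.39. Control day 7 replicate 1 was the lowest of its group for 21 members and control day 21 replicate 1 for 12. Among KO arrays, day 7 replicate 1 was the lowest for 20 and day 21 replicate 2 for 13. These counts take no account of size. On average over the members, these control arrays lay at -0.38 and -0.53 from their group means, and these KO arrays at -0.20 and -0.11. Upward, control day 7 replicate 3 lay at 0.38, control day 21 replicate 2 at 0.31 and KO day 21 replicate 3 at 0.27. Leaving out any 1 control array left 29 or 30 members with the larger SD in control, a share of 85.3% to 88.2%, against 61.9% to 67.9% of all genes. After subtraction of group means, members correlated with each other over the 17 arrays at a mean r of 0.0965, against 0.000448 for all genes. This is a description, and its cause was not tested. Mcm7, Rrm2, Mcm3 and Mcm6 followed the mean of the other members most closely (r = 0.77, 0.76, 0.73 and 0.70), and Usp1 and Cdc45 least (r = -0.47 and -0.35).

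**Figure D5:**
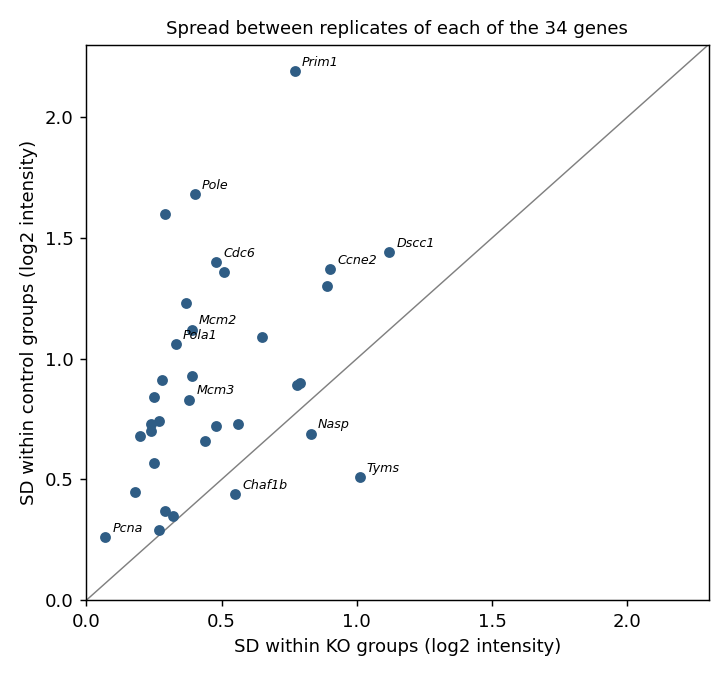
SD between replicates of each of the 34 genes, pooled within the KO groups (x axis) and within the control groups (y axis), in log2 intensity. The line marks equal SDs. All genes but Tyms, Chaf1b and Nasp lie above it.

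Other genes of the pathway were counted as well. Of 58 listed, from origin recognition to the checkpoint, 56 were measured, and 41 of these were higher in KO at day 7, 38 at day 21 and 48 in fetal liver against control, with medians of 0.61, 0.23 and 0.66. None passed in KO at either day, with 9 and 7 at an unadjusted p under 0.05 (16.1% and 12.5% of the list, against 6.72% and 10.1% of all genes). In fetal liver against control 5 passed, all higher, 8.93% of the list against 1.88% of all genes for rises. They were Dna2 at 1.70 (SE 0.30, limma adjusted p = 0.00578), a nuclease of lagging strand processing, Rpa3 at 1.42 (SE 0.30, adjusted p = 0.0182), the small subunit of the single-strand binding complex, Uhrf1 at 1.94 (SE 0.45, adjusted p = 0.0305), which brings DNA methylation to new DNA, Mcm10 at 2.24 (SE 0.55, adjusted p = 0.0396), a factor of helicase activation, and Rnaseh2c at 0.98 (SE 0.25, adjusted p = 0.0461), a subunit of an RNA-removing nuclease. Dna2 also passed against KO, at 1.67 (SE 0.30, adjusted p = 0.00807). The smallest p in KO were those of Rpa3 (1.55, SE 0.35, adjusted p = 0.349) and the repressor E2f8 (2.63, SE 0.65, adjusted p = 0.390) at day 7, and of the helicase Recql4 (1.73, SE 0.40, adjusted p = 0.162) and Mcm10 (2.16, SE 0.56, adjusted p = 0.233) at day 21.

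Between the control groups, 13 of 34 members were higher and 21 lower at day 21 than at day 7, with a median of -0.14 against 0.00 over all genes, or 0.02 against 0.16 with each array centred on its median. None passed in limma, against 5 genes (0.0298%), and Cdc6 was the one member at an unadjusted p under 0.05 (8.05% of all genes). Without control day 21 replicate 1 the direction turned, with 20 members higher, a median of 0.16 and 4 at an unadjusted p under 0.05. No member differed between these groups without overlap, against 2.75% of all genes higher and 3.38% lower.

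The choice of probe set bears on single genes. Of the 34 probe sets used, 6 carry the suffix _x_at, 3 _s_at and 4 _a_at. Another 33 probe sets above the median level stand for 20 of the genes. They had the sign of the one used in 23 of 33 cases at day 7, 18 of 33 at day 21 and 27 of 33 in fetal liver against control, with medians of 0.62, 0.10 and 0.86. With all probe sets tested, 1 of these 33 passed in fetal liver against control, for Mcm3, and 1 against KO, for Rfc2 at -1.13 (limma adjusted p = 0.0436).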

How the data were processed

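The authors deposited 1 intensity per probe set and array for 45101 probe sets of 17 Affymetrix arrays. These intensities are linear with a lowest value of 16, and RMA is the one tool named, per the submitters' processing notes. No version, setting or later scaling step is stated for it, so the scale of the values beyond that is unknown. Of 35890 annotated probe sets, 34958 had 1 gene symbol, 932 had several and were left unnamed, and 34754 matched the RefSeq gene table (GRCm38.p6). Intensities were taken to log2 with no pseudocount, and each gene was read from its probe set with the highest mean. Of 18194 genes, 1409 at the floor on all arrays were left out.

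All 5 groups were fitted with limma 3.58.1 in R 4.3.3 (lmFit, eBayes, 12 residual and 1.5 prior degrees of freedom). The p-values were adjusted by Benjamini-Hochberg over the 16785 genes tested, with a threshold of 0.05. Each gene has 1 estimate of the spread, shared by all groups, on which every SE, interval and p-value rests. The members' median SD, however, was 0.84 in control, 0.39 in KO and 0.48 in fetal liver, so that estimate does not describe each group alone. The fit was also run on simulated data, drawn as independent normal values with 1 SD per gene in all groups. That run cannot show how the fit does where the spread differs between groups, as it did here. Adult control and KO in the fetal comparisons are the mean of both days. All 34 members could be named, with full values for Mcm2 to Mcm7, Pcna and the called members, or else the 3 members of smallest p per comparison. Other replication genes are named where called, at most 6 per comparison, or else the 2 of smallest p. Further values per array were added after they were seen. The members, the gene lists and the alternatives were chosen with earlier results of these data known. The number of arrays limits the precision. No 2 arrays held the same values (highest correlation 0.952). Promoters are RefSeq windows read with Python 3.11.15 and pandas 2.3.3, and figures were drawn with matplotlib 3.10.9.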

Additional observations from a re-analysis of the deposited data

Results flagged for a closer look

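Of the 70 sets of 4 arrays examined (34 genes and their mean, in control and in KO at day 21), 8 had 1 array whose gap to the nearest other array was large relative to the whole range of its group, by Dixon's test at its 95% level. Chance gives about 1 in 20 for independent sets, but these sets share their arrays, so that rate is no exact yardstick. Of these 8, 6 were in control and 4 on control day 21 replicate 1. That array was low in log2 intensity for Mcm3 (9.05, nearest 10.24), for Gins1 (5.78, nearest 8.4), for Prim1 (5.06, nearest 8.83) and for the histone chaperone Nasp (7.86, nearest 9.38). Control day 21 replicate 2 was high for Dscc1, at 6.24 against 4.21 on the nearest array, in a group with 2 arrays at the floor. Control day 21 replicate 4 was high for Cdca7, at 9.38 against 8.94. Among the KO arrays at day 21, replicate 4 was high for Gins1, at 9.76 against 8.44, and replicate 2 was high for Tyms, at 7.94 against 5.51. The groups of 3 arrays were not examined in this way.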

How the results depend on the processing

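No member was called in KO against control, at either day or over both, in the difference of the KO effects, in fetal liver against KO or between control days, under any alternative run on genes or with any 1 array left out. With all probe sets tested singly, a second probe set of Rfc2 was called in fetal liver against KO (-1.13, limma adjusted p = 0.0436). The members' median stayed above 0 throughout in KO at day 7 (0.26 to 0.53), at day 21 (0.01 to 0.32), over both days (0.23 to 0.52), in fetal liver against control (0.48 to 0.72) and against KO (0.09 to 0.45), and below 0 in the difference of the KO effects (-0.47 to -0.09). Between control days it ran from -0.16 to 0.16 with 1 array left out and was 0.16 without control day 21 replicate 1. Under the other alternatives it ran from -0.21 to 0.06. No called value changed sign. The causes of the shifts below were not tested.

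Members called in fetal liver against control numbered 1, but 2 with centred arrays, 2 without both control libraries set apart by earlier results (control day 7 replicate 1 and control day 21 replicate 3), 3 with the mean of all probe sets, 0 with only the groups compared, and 0 to 4 with 1 array left out. Genes called out of all 16785 moved more. At day 7 they numbered 0, but 2 with the mean of all probe sets, 3 without both control libraries and 0 to 6 with 1 array left out (6 without control day 7 replicate 1). At day 21 they numbered 3, but 14 with log2(intensity + 16), 12 with a stricter filter (above the array median on 3 arrays), 19 with the mean of probe sets, 0 with only the groups compared, 1 with the share at the floor as a covariate, 0 with that share and the replicate block, 1 with array weights, 5 without both control libraries and 1 to 43 with 1 array left out (43 without control day 21 replicate 2). Over both days they numbered 12, but 1 with centred arrays, 5 without a filter, 29 with the mean of probe sets, 5 with only the groups compared, 1 with the covariate, 0 with covariate and block, 44 with array weights and 0 to 11 with 1 array left out. The difference of the KO effects gave 0, but 4 without both control libraries and 0 to 2 with 1 array left out. Fetal liver against control gave 613, but 234 with only the groups compared and 402 against control day 7 alone. Fetal liver against KO gave 426, but 650 with the mean of probe sets and 214 against KO day 7 alone. Between control days there were 5, but 3 with log2(intensity + 16), without a filter or with the mean of probe sets, 1 with the covariate, with covariate and block or with array weights, 11 without both control libraries and 1 to 11 with 1 array left out.

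Centring shifted the median of all genes by -0.16 at day 21, -0.11 over both days, 0.13 in fetal liver against KO and 0.16 between control days. Calls in fetal liver against KO were then 247 higher and 180 lower, against 201 and 225. The probe set of highest linear mean, an alternative chosen after seeing the data, was another one for Tyms alone.

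Replicate numbers in the titles gave no clear pairing of the arrays. Deviations of same-numbered arrays correlated at -0.04 to 0.08, and 6 of 17 arrays correlated best with an array of their own number. No chance level stands beside these values, so they cannot exclude a pairing. With the replicate block, the genes called were 0 at day 7, 3 at day 21, 11 over both days, 0 in the difference, 524 and 345 in fetal liver against control and KO, and 4 between control days. The members' medians were then 0.40, 0.16, 0.38, -0.31, 0.62, 0.28 and -0.12 in the same order, and Mcm3 was the 1 member called.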
